A study of Homo sapiens with 11 samples.

Results

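The transcripts of A549 cells that stood apart between cigarette smoke condensate (CSC) and its vehicle, dimethyl sulfoxide (DMSO), after both 48 hours and 2 weeks of exposure are described here. All 11 libraries entered a single additive model of treatment with duration as a block, and the treatment term of that model is the difference reported for each gene. A limma p under 0.05 after Benjamini-Hochberg adjustment counts as a call, and a gene was separated when every CSC library lay on one side of the DMSO libraries of its own duration. Of 12506 genes tested, 643 (5.14%) were called, 280 (2.24%) higher and 363 (2.9%) lower with CSC. Of these, 492 (3.93%) were also separated at both durations, 220 (1.76%) higher and 272 (2.17%) lower, and they are the genes described below. Whatever the p, 483 genes (3.86%) were separated upward and 415 (3.32%) downward. Separation served to choose these genes and is therefore a description, with no test of its own.

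A549 is an established human lung adenocarcinoma cell line, and the series asked which transcripts respond to tobacco smoke in such cells. The groups were DMSO for 48 hours (2 libraries, replicates 2 and 3), CSC for 48 hours (3 libraries), DMSO for 2 weeks (3 libraries) and CSC for 2 weeks (3 libraries). CSC was given at a dose that the labels write as 20 uM, a molar unit that is not defined there for a mixture. RNA depleted of ribosomal RNA was sequenced and deposited as FPKM, a level of fragments corrected for transcript length and library size. The labels do not say whether replicates came from separate cultures, so p-values here speak of the spread among these libraries alone, which may be technical.

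CSC holds the condensed particles of smoke and contains polycyclic aromatic hydrocarbons. Such compounds bind the aryl hydrocarbon receptor (AHR), which moves to the nucleus, pairs with ARNT and binds DNA at sites with the core GCGTG in front of genes for drug-metabolizing enzymes. AHRR and TIPARP, which the receptor itself induces, restrain it in turn. Lung epithelial cells also answer smoke through NRF2, ATF4 and growth factor signalling.

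Summed FPKM ran from 338507 to 484053 per library, and 11742 to 12051 genes reached 1 FPKM. Depth in reads is unknown. The width of the deposited confidence bounds gave relative depths of 1 to 1.53 in 10 libraries and 2.78 in CSC 2 weeks replicate 2. CSC 48 hours replicate 3 stood farthest from its own group, with a mean correlation of 0.967 across genes, while the other libraries lay between 0.970 and 0.987. The keratin genes KRT7, KRT8 and KRT18 were among the 6 epithelial identity markers, all of them tested, whose summed level was 3019 to 3081 FPKM in DMSO and 2129 to 2445 in CSC at 48 hours, and 4270 to 4915 and 2935 to 4027 at 2 weeks. The sum says little of the less abundant members. EPCAM lay at 2.59 to 8.15 FPKM, CDH1 at 2.51 to 11.1 and KRT19 at 24.4 to 49.3. KRT19 had the only positive difference of the 6 (0.25), and it was not called. Of the other cell types, 0 of 5 endothelial markers, 1 of 6 fibroblast markers and 2 of 6 leukocyte markers were tested. Their sums were at most 1.12, 12 and 11.8 FPKM in any library. KDR, COL1A2 and DCN were listed at 0 in all 11 libraries, and PTPRC and CD3E stayed below 0.1 FPKM. The tested members were present in every library. The fibroblast marker COL1A1 lay at 3.73 to 11.5 FPKM, and the leukocyte markers CD68 and CD14 at 3.81 to 7.24 and 0.676 to 3.76. Of the alveolar type II genes, SFTPC, SFTPA2 and NKX2-1 were at or near 0 in every library, but others were not. ABCA3 lay at 8.93 to 12.4 FPKM and LPCAT1 at 16.2 to 52.0. CTSH lay at 7.03 to 12.4 FPKM and ETV5 at 7.69 to 13.1. On the list of type II and surfactant genes, 11 were tested and 3 were at 0 in all libraries. In such bulk samples fewer cells of a type and less RNA per cell cannot be told apart.

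Without CSC 48 hours replicate 3 the genes called and separated numbered 325 higher and 417 lower, and without the deep library CSC 2 weeks replicate 2 they numbered 359 and 405. Leaving out both, an alternative chosen after the data were seen, gave 863 and 772. Leaving out another 2-week library lowered the counts, to 126 higher and 188 lower without DMSO replicate 1, 110 and 186 when replicate 2 was dropped, 99 and 230 when it was replicate 3, 135 and 237 without CSC replicate 1, and 97 and 190 without CSC replicate 3. The higher genes also numbered 327 without CSC 48 hours replicate 2. Median-of-ratios scaling gave 203 higher and 405 lower, a share of 33.4% higher against 44.7% as deposited. The share moved less under the other scalings, with 230 and 312 (42.4% higher) under a common sum and 283 and 388 (42.2% higher) under quantile normalization. Of the 492 genes, 255 (82 higher and 173 lower) were called in each of the 11 fits that left out 1 library. None changed sign under any setting that tested it. Separation at both durations already fixes the sign when 1 library is left out, so the sign in those fits is no test.

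Among the strongest rises of separated genes were those of AHR targets and of GREM1, which blocks bone morphogenetic proteins (BMPs) outside the cell. Among the strongest falls were those of ANXA8L1, an annexin gene with near-identical copies, PDE3A, which breaks down cyclic AMP, the neuronal genes NPTX1 and RTN4RL2, and the defensin DEFB1. The median log2 difference was 0.50 over the 220 higher genes and -0.58 over the 272 lower genes, beside 0.06 over all genes tested. A difference of at least 2-fold on the log2(FPKM + 0.5) scale, which understates the change of low genes, was reached by 13 of the higher and 43 of the lower genes. The higher genes had a median level of 8.36 FPKM and the lower genes of 12.3 FPKM, against 7.88 for all genes tested.

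**Figure D1:**
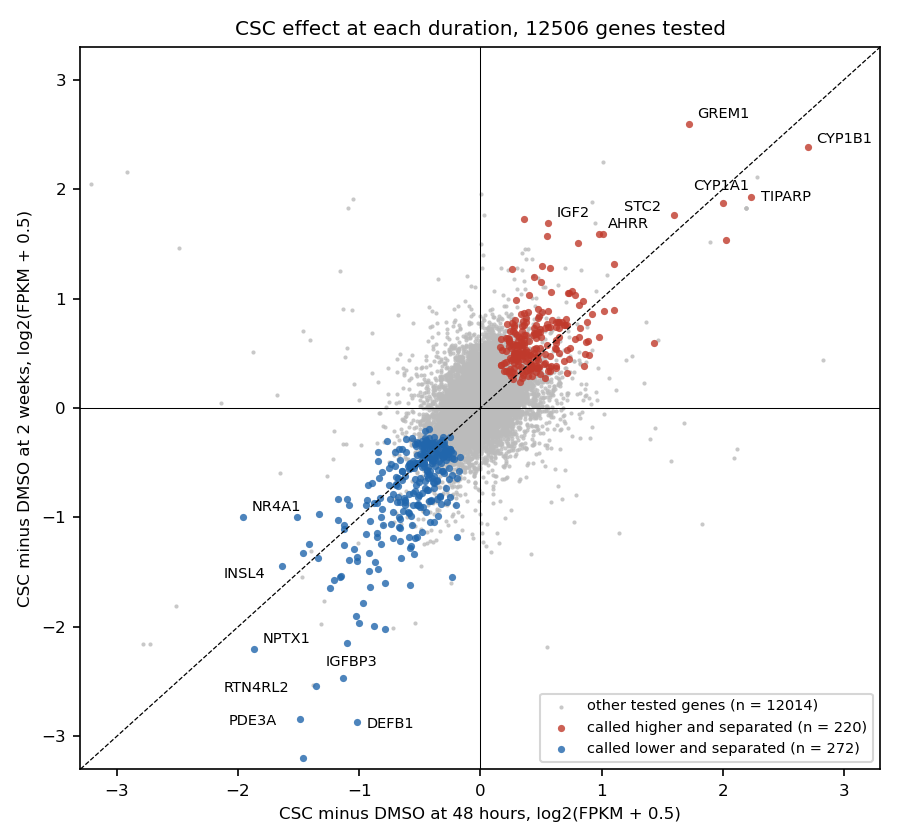
Difference CSC minus DMSO on the log2(FPKM + 0.5) scale at 48 hours (x axis) and at 2 weeks (y axis), 1 point per gene tested. Red points are the 220 genes called higher and separated at both durations, blue points the 272 called lower and separated, grey points the other genes; the dashed line marks equal differences, and 9 genes lie outside the plotted range.

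The 2 durations have their own DMSO libraries, and the main effect draws on both. At 48 hours alone 36 genes (0.288%) were called, and at 2 weeks alone 676 (5.41%). Among the higher genes the median difference was 0.42 at 48 hours and 0.57 at 2 weeks, and among the lower genes it was -0.51 and -0.64. All genes tested had medians of 0.00 and 0.09. The difference was larger at 2 weeks in 156 of the 220 higher and 180 of the 272 lower genes. The same share over all genes tested was not counted, so these counts do not set the separated genes apart from the others. The main effect that chose them also rests on 3 CSC and 3 DMSO libraries at 2 weeks but on 3 and 2 at 48 hours. A test of the change in effect between durations called 5 of all 12506 genes (0.04%; 876 at an unadjusted p under 0.05). Of these, 2 were among the 492: RTN4RL2 and GABRE, a GABA receptor subunit. The other 151 called genes (60 higher and 91 lower) missed separation at 1 duration, 122 of them at 48 hours and 29 at 2 weeks. Close to the threshold, ZNF580, a zinc finger gene, was separated with a difference of 0.47 ± 0.13 (SE, adjusted p = 0.0498, and 0.137 without CSC 2 weeks replicate 3), and CDCP1, a membrane glycoprotein, was called at 0.37 ± 0.10 (adjusted p = 0.0495, and 0.133 without that library) but overlapped at 2 weeks.

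The promoters of TIPARP, AHRR and CYP1A1 are shown because these genes respond to AHR and rose together. Each run gives 250 bases before to 50 after the start of a RefSeq transcript on build GRCh38.p14, in the direction of the gene, with capitals marking the core GCGTG or its reverse complement CACGC. TIPARP lies at chr3:156674340-156674639 (plus strand), AHRR at chr5:321464-321763 (plus strand) and CYP1A1 at chr15:74725479-74725778 (minus strand). Where a gene has several starts, the first listed is printed.
TIPARP: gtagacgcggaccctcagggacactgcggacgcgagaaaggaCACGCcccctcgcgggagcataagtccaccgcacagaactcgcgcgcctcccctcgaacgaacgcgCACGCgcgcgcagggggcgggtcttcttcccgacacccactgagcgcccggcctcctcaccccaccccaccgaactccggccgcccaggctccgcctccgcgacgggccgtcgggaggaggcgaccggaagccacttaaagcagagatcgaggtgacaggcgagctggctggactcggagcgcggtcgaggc
AHRR: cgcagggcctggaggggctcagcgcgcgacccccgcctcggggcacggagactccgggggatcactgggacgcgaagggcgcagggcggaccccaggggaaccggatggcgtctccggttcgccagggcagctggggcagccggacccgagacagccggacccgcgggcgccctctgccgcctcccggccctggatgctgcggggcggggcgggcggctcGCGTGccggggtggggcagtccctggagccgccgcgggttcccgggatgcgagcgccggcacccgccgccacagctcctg
CYP1A1: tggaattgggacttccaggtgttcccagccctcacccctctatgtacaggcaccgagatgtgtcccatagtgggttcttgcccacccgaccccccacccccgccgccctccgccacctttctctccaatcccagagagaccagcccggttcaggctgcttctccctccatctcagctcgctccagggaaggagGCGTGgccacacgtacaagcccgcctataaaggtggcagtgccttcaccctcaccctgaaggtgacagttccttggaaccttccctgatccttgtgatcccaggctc

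In TIPARP the core occurred 2 times, both on the opposite strand, with the first base 208 and 142 bases before the start. In AHRR it lay on the gene's own strand 30 bases before the start, and in CYP1A1 57 bases before it. The longer motif TNGCGTG, which contains the core, was found on either strand only in AHRR among these 3. Over 27305 promoters of this length, 36.3% held GCGTG and 5.51% held TNGCGTG on either strand, so a match is a description and not a binding site. A promoter sequence was at hand for 160 of the 220 higher genes (72.7%) and 207 of the 272 lower genes (76.1%), beside 9831 of all 12506 genes tested (78.6%). With this coverage, no motif count over the whole set was made.

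CYP1B1, which oxidizes polycyclic hydrocarbons (hg19 chr2:38294746-38303323), had the largest rise of the separated genes. It measured 5.43 and 7.35 FPKM in the 48-hour DMSO libraries and 50.5, 26.0 and 64.8 in CSC. At 2 weeks it measured 11.7, 12.6 and 9.96 in DMSO and 59.7, 72.1 and 53.8 in CSC. Even the lowest CSC library was above every DMSO library, and the difference was 2.53 ± 0.19 (adjusted p = 1.32e-05). CYP1A1, the classical AHR-induced monooxygenase, lay at 0.0415 to 0.217 FPKM in the 5 DMSO libraries. It reached 1.88, 0.698 and 3.81 in CSC at 48 hours and 1.73, 1.95 and 1.44 at 2 weeks, again without overlap. Its difference of 1.93 ± 0.26 (adjusted p = 0.00071) concerns a low level.

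TIPARP is an enzyme that attaches ADP-ribose to AHR. Its levels were 11.7 and 8.20 FPKM in DMSO against 47.2, 45.8 and 50.7 in CSC at 48 hours, and 12.9, 11.1 and 11.5 against 41.3, 47.0 and 51.1 at 2 weeks. The CSC libraries formed a narrow range far above all DMSO libraries, with a difference of 2.06 ± 0.10 (adjusted p = 2.86e-07). AHRR, the AHR repressor, had 0.459 and 0.647 FPKM in DMSO and 1.91, 0.867 and 2.20 in CSC at 48 hours. At 2 weeks it had 0.586, 0.292 and 0.539 in DMSO and 2.54, 2.34 and 2.33 in CSC. CSC 48 hours replicate 2 was the lowest treated library for AHRR, CYP1A1 and CYP1B1. The AHRR locus overlaps PDCD6, and CYP1B1 overlaps an antisense gene. How the counting used strand is not given in the sources used here, so reads from such pairs cannot be told apart.

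AHR itself fell. It measured 10.6 and 12.9 FPKM in DMSO and 7.92, 8.01 and 9.33 in CSC at 48 hours, and 13.6, 13.0 and 11.6 against 7.81, 7.97 and 7.64 at 2 weeks. The CSC libraries were lower at both durations, with a difference of -0.58 ± 0.08 (adjusted p = 0.0013). Its partner ARNT was at 0.04 ± 0.08 (adjusted p = 0.763), with a sign that turned negative under each of the 3 scalings tried.

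Of 20 tested AHR-inducible and feedback genes, 8 were called higher and 2 lower, and 7 of the 8 were separated. The list's median was 0.23, beside 0.06 for all genes. Besides the enzymes and feedback genes above, the rises included TMEM156, a membrane protein gene, with 5.38 to 8.58 FPKM in DMSO and 14.0 to 23.5 in CSC (1.22 ± 0.13, adjusted p = 0.000185). EREG, an EGF receptor ligand called in 10 of the 11 fits that left out 1 library, and STC2, a secreted glycoprotein, were the others. ALDH3A1, an aldehyde dehydrogenase, was called at 0.91 ± 0.22 (adjusted p = 0.0272, and 0.0792 without DMSO 48 hours replicate 2) but overlapped at 48 hours, and FOSL2, an AP-1 subunit, was called lower (-0.68 ± 0.13, adjusted p = 0.00714). The members called lower were FOSL2 and LTBP1, neither of them separated. Only 1 was called lower without CSC 48 hours replicate 1 or any single 2-week library other than CSC replicate 2.

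**Figure D2:**
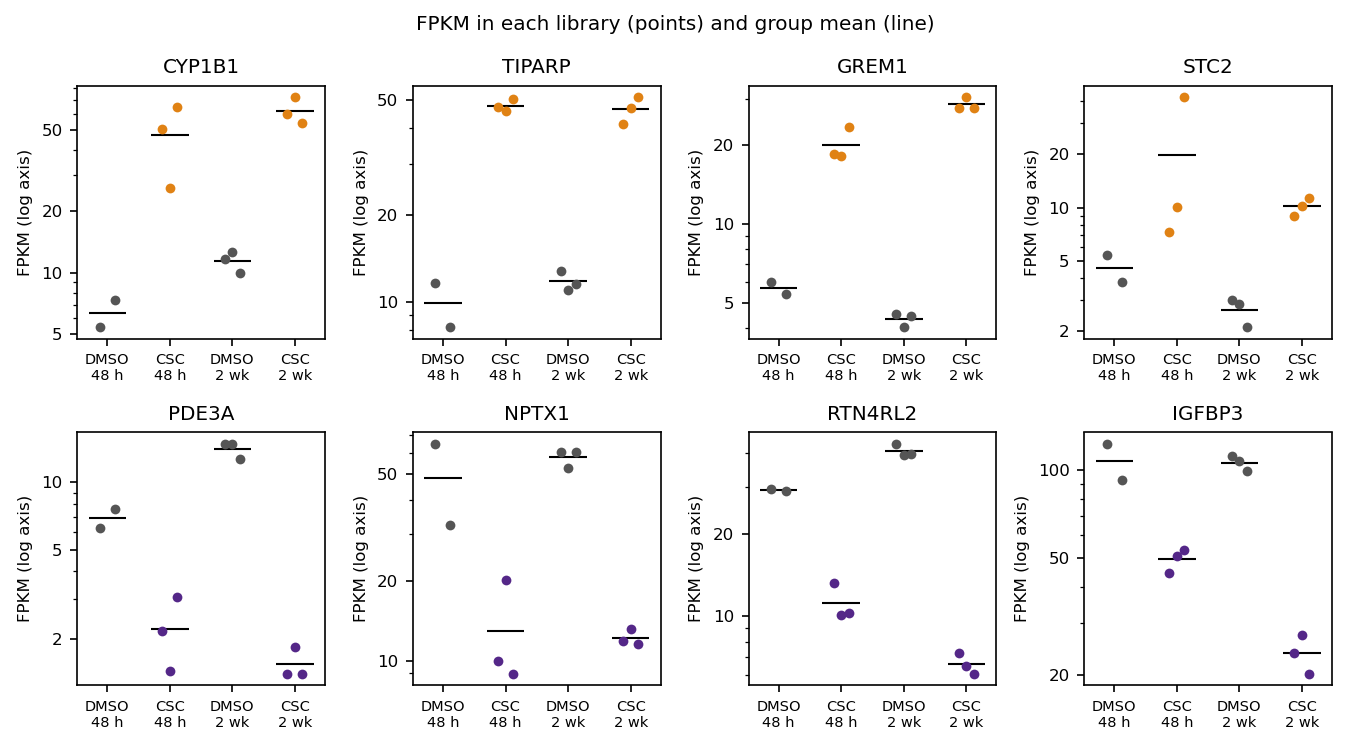
FPKM (log axis) of 8 genes in each library (points) with the group mean (line), for DMSO and CSC at 48 hours and 2 weeks. CYP1B1, TIPARP, GREM1 and STC2 lie higher in every CSC library than in the DMSO libraries of the same duration, while PDE3A, NPTX1, RTN4RL2 and IGFBP3 lie lower.

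Of 14 tested genes next to CpG sites whose methylation is linked to smoking in other studies, 6 were called higher and 2 lower, all of them separated, with a median of 0.20. Besides AHRR, CYP1A1, CYP1B1 and TIPARP, the rises were of ANPEP, a membrane aminopeptidase (0.66 ± 0.13, adjusted p = 0.00981), and FRMD4A, a cell polarity protein (0.70 ± 0.12, adjusted p = 0.00385). The falls were of the protease PRSS23 (-0.42 ± 0.09, adjusted p = 0.0132) and of EPAS1, the hypoxia-inducible factor HIF-2alpha. EPAS1 had 36.1 and 30.4 FPKM in DMSO and 20.8, 22.5 and 24.1 in CSC at 48 hours, and 40.1, 40.3 and 38.6 against 19.8, 19.5 and 24.6 at 2 weeks. It was lower in all 6 CSC libraries (-0.74 ± 0.10, adjusted p = 0.000622). Among hypoxia and glycolysis genes 4 of 27 were called, all lower, with CA9, a carbonic anhydrase, among them (-0.92 ± 0.20, adjusted p = 0.0184, and 0.0626 without DMSO 2 weeks replicate 2).

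A549 carries a mutated KEAP1, which leaves NRF2 active without a stimulus. The 38 NRF2 targets tested had a median of 0.14, beside 0.06 for all genes, with -0.05 at 48 hours and 0.32 at 2 weeks. Their difference was positive in 27, beside 7792 of all 12506 genes. An unadjusted limma p under 0.05 was reached by 14 of them, 11 higher and 3 lower. Of the 38, 2 were called higher, ALDH3A1 and NR0B1, and neither was separated. This count was 0 without any single DMSO 2 weeks library or without CSC 2 weeks replicate 3. It was 1 without CSC 48 hours replicate 1, CSC 2 weeks replicate 1 or DMSO 48 hours replicate 2, and 4 when DMSO 48 hours replicate 3 or CSC 48 hours replicate 2 or 3 was left out. NR0B1, a nuclear receptor gene, had an adjusted p of 0.022, and 0.0704 without CSC 2 weeks replicate 3. The quinone reductase NQO1 stood at 270 and 297 FPKM in DMSO and 342, 282 and 306 in CSC at 48 hours, and at 343, 341 and 293 against 504, 397 and 406 at 2 weeks. Those libraries overlapped at 48 hours, and the difference of 0.29 ± 0.11 did not pass (adjusted p = 0.14). HMOX1, the inducible heme oxygenase, did not pass either, at -0.38 ± 0.11 (adjusted p = 0.0562), though it was called in 2 of the 11 fits that left out 1 library. Of 20 endoplasmic reticulum chaperones, 16 cytosolic heat shock genes, 42 cell cycle genes and 52 cytosolic ribosomal protein genes, 0 were called in either direction by limma, while 7, 0, 4 and 47 had an unadjusted p under 0.05. Over all 12506 genes tested, 2985 had such an unadjusted p. The heat shock list does not hold every such gene: HSPA2, HSPB8 and DNAJB4, named after their values were seen, were called lower and separated. HSPA2, a relative of the heat shock protein HSP70, had 29.4 and 29.2 FPKM in DMSO and 14.5, 15.1 and 4.33 in CSC at 48 hours, and 39.6, 38.6 and 34.8 against 20.7, 19.1 and 16.3 at 2 weeks (-1.23 ± 0.25, adjusted p = 0.0113). HSPB8, a small heat shock protein, was at -0.73 ± 0.11 (adjusted p = 0.00234), and DNAJB4, a cochaperone, at -0.42 ± 0.10 (adjusted p = 0.0211), called in 8 of the 11 fits that left out 1 library. All 52 ribosomal protein genes had a positive difference, with a median of 0.33, which was 0.08 at 48 hours and 0.54 at 2 weeks.

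BMPs are secreted ligands that signal through serine and threonine kinase receptors to SMAD proteins, and GREM1 binds the ligands and keeps them from the receptors. GREM1 (hg19 chr15:33010205-33026870) had 6.01 and 5.39 FPKM in DMSO and 18.5, 18.2 and 23.5 in CSC at 48 hours. At 2 weeks it had 4.53, 4.03 and 4.46 in DMSO and 27.8, 30.5 and 27.7 in CSC. All CSC libraries were at least 3 times as high as the highest DMSO library of either duration, and the difference was 2.21 ± 0.14 (adjusted p = 3.76e-06). It was 1.72 at 48 hours and 2.59 at 2 weeks, and a change between durations did not pass (adjusted p = 0.277).

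The ligand BMP6 moved the other way, from 3.49 and 6.0 FPKM in DMSO to 1.65, 1.34 and 2.41 in CSC at 48 hours, and from 5.51, 5.63 and 4.93 to 2.95, 3.5 and 2.06 at 2 weeks. Its CSC libraries were the lower ones at each duration (-0.98 ± 0.16, adjusted p = 0.00311). The receptor gene TGFBR1 fell from 32.0 and 27.3 to 18.9, 19.8 and 19.4 FPKM at 48 hours and from 122, 115 and 113 to 56.9, 69.4 and 54.6 at 2 weeks. The DMSO libraries stood higher at 2 weeks than at 48 hours, and CSC was lower at each duration (-0.80 ± 0.10, adjusted p = 0.000363). BMP1, a procollagen protease named for its copurification with BMPs, fell by 0.76 ± 0.13 on the log2 scale (adjusted p = 0.00385). Over the whole BMP and TGF-beta list, 11 of 29 tested genes were called lower and 1 higher, 8 and 1 of them separated, and the median was -0.20. The other separated falls were of FSTL1, TGFBI, ID3, BAMBI and BMPR2. Of these, ID3, an inhibitor of bHLH factors and a BMP target, was at -0.52 ± 0.11 (adjusted p = 0.0152), and BAMBI, a decoy receptor, at -0.46 ± 0.10 (adjusted p = 0.0155). ID3 was called in 8 and BAMBI in 10 of the 11 fits that left out 1 library, TGFBI in 7 and BMPR2 in 3. These members were named after their values were seen. The count called lower was 4 without CSC 2 weeks replicate 3, 5 without DMSO 2 weeks replicate 1 or 2, and 7 without DMSO 48 hours replicate 2, DMSO 2 weeks replicate 3 or CSC 2 weeks replicate 1.

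In the insulin-like growth factor (IGF) axis, the ligand gene IGF2 rose, and of the 6 binding protein genes tested on the list 2 were called, IGFBP3 and IGFBP7, both lower. IGF2, a growth factor ligand, had 0.749 and 0.922 FPKM in DMSO and 1.86, 1.07 and 1.54 in CSC at 48 hours. At 2 weeks it had 2.52, 2.06 and 2.58 in DMSO and 8.52, 9.47 and 8.35 in CSC. The 48-hour libraries were close to each other and those at 2 weeks far apart, and the difference was 1.19 ± 0.19 (adjusted p = 0.00245). The IGF2 locus overlaps an antisense gene and a readthrough transcript.

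IGFBP3, which carries IGFs in the circulation, fell from 123 and 92.6 FPKM in DMSO to 44.5, 51.0 and 53.4 in CSC at 48 hours, and from 112, 108 and 99.5 to 23.7, 27.2 and 20.2 at 2 weeks. Every CSC library was below the lowest DMSO library (-1.68 ± 0.17, adjusted p = 0.000131). IGFBP7 fell by 0.97 ± 0.14 (adjusted p = 0.00112). The stanniocalcins, which inhibit a protease that cleaves IGF binding proteins, split: STC1 fell by 0.96 ± 0.16 (adjusted p = 0.00339) and STC2 rose. STC2 measured 5.38 and 3.80 FPKM in DMSO and 7.27, 10.1 and 42.0 in CSC at 48 hours, and 3.01, 2.84 and 2.12 against 9.01, 10.2 and 11.4 at 2 weeks. CSC 48 hours replicate 3 was far above the other libraries, which were still separated (1.69 ± 0.32, adjusted p = 0.00859). Of 18 genes of the axis, 3 were called higher and 4 lower, 2 and 4 of them separated. The third rise, of IGF2BP2, an RNA-binding protein (0.57 ± 0.12, adjusted p = 0.0114), was not separated, and the fourth fall was of the receptor gene IGF1R (-0.43 ± 0.10, adjusted p = 0.0312), called in 3 of the 11 fits that left out 1 library.

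The ATF4 list, genes of amino acid supply and the integrated stress response, had 11 of 38 tested members called, all higher and 5 of them separated, with a median of 0.51. MTHFD2, a mitochondrial folate enzyme, had 57.3 and 50.4 FPKM in DMSO and 58.1, 64.4 and 118 in CSC at 48 hours, and 45.8, 40.4 and 40.9 against 109, 78.6 and 99.8 at 2 weeks. At 48 hours CSC replicate 1 was barely above DMSO and replicate 3 stood far above it (0.86 ± 0.18, adjusted p = 0.0147, and 0.0520 without CSC 2 weeks replicate 3). GDF15, a stress cytokine, was called at 1.36 ± 0.29 (adjusted p = 0.0157, and 0.0555 without CSC 2 weeks replicate 3) but overlapped at 48 hours. The list's median level relative to all libraries was -0.17 and -0.25 in DMSO and -0.27, -0.22 and 0.75 in CSC at 48 hours, so that only CSC 48 hours replicate 3 was high at that time. The same library had the lowest cytosolic heat shock level, at -0.73. The count called higher was 1 without CSC 2 weeks replicate 3, 4 without CSC 2 weeks replicate 1 and 3 without any single DMSO 2 weeks library. Over the 11 fits that left out 1 library, the count ran from 1 to 16. The fit without CSC 48 hours replicate 3 was not among those that brought it to 4 or below. Any further part of CSC 48 hours replicate 3 in these rises was not tested.

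Among ERK feedback genes and EGF receptor ligands, 9 of 24 were called higher and 1 lower, 6 and 1 of them separated, and the median was 0.33. TGFA, a ligand of the EGF receptor, rose from 2.59 and 2.83 FPKM to 5.70, 6.28 and 5.56 at 48 hours and from 2.04, 2.02 and 1.93 to 3.08, 3.60 and 3.57 at 2 weeks. The groups lay clearly apart at both durations (0.80 ± 0.09, adjusted p = 0.000253). EREG, a second ligand, rose by 0.70 ± 0.15 (adjusted p = 0.0179), and PHLDA1, an ERK-responsive gene, by 0.71 ± 0.13 (adjusted p = 0.00506). DUSP5, a nuclear ERK phosphatase, fell from 21.1 and 21.0 FPKM to 11.9, 11.5 and 15.7 at 48 hours and from 19.2, 16.3 and 13.9 to 10.2, 7.81 and 9.33 at 2 weeks, opposite to the Sprouty genes SPRY2 and SPRY4, which rose but were called in 7 and 5 of the 11 fits that left out 1 library. Its difference was -0.76 ± 0.11 (adjusted p = 0.00114). The count called higher was 3 without CSC 2 weeks replicate 3, 4 without DMSO 48 hours replicate 2 or DMSO 2 weeks replicate 3, and 5 when CSC 2 weeks replicate 1 or DMSO 2 weeks replicate 1 or 2 was left out.

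PDE3A, a phosphodiesterase that hydrolyses cyclic AMP (hg19 chr12:20522179-20837041), had the largest fall of the separated genes at a single locus. It measured 6.24 and 7.64 FPKM in DMSO and 2.16, 1.43 and 3.07 in CSC at 48 hours, and 14.8, 14.9 and 12.7 against 1.40, 1.84 and 1.40 at 2 weeks. Vehicle levels were higher at 2 weeks while CSC levels stayed low (-2.24 ± 0.23, adjusted p = 0.000116), and a change of the effect between durations did not pass (adjusted p = 0.313). SIK1, a kinase induced by cyclic AMP, fell by 0.64 ± 0.10 (adjusted p = 0.00213), and PDE10A by 0.53 ± 0.10 (adjusted p = 0.00982). With ADCY9, an adenylate cyclase (adjusted p of 0.0732 without CSC 2 weeks replicate 3), these were the 4 of 25 tested members of the cyclic AMP list called, all lower and separated, with a list median of -0.01. Without CSC 48 hours replicate 3 the count was 7. Outside the list, and named after their values were seen, PDE8B, another cyclic AMP phosphodiesterase, fell by 0.68 ± 0.10 (adjusted p = 0.0016), and PKIG, an inhibitor of protein kinase A, rose by 0.36 ± 0.09 (adjusted p = 0.0387) but was called in 3 of the 11 fits that left out 1 library. The nuclear receptor gene NR4A1, an immediate early gene, had 6.47 and 9.49 FPKM in DMSO and 1.66, 1.28 and 2.09 in CSC at 48 hours, and 6.85, 5.75 and 5.89 against 3.18, 2.30 and 3.08 at 2 weeks. Every CSC library was lower, most of all at 48 hours (-1.42 ± 0.18, adjusted p = 0.000545). Its list did not share this fall. Of 20 immediate early and AP-1 genes tested, 1 was called higher and 2 lower, with a median of 0.19 and 13 positive differences. The count called higher was 2 without CSC 48 hours replicate 2.

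RTN4RL2, a relative of the Nogo receptor on neurons (hg19 chr11:57228339-57244384), had 29.3 and 29.1 FPKM in DMSO and 13.2, 10.1 and 10.2 in CSC at 48 hours, and 43.3, 39.2 and 39.7 against 7.26, 6.48 and 6.10 at 2 weeks. Libraries within a group lay close together and the groups far apart (-2.01 ± 0.18, adjusted p = 5.98e-05). The difference was -1.36 at 48 hours and -2.54 at 2 weeks, and this change between durations passed (adjusted p = 0.0432). NPTX1, a neuronal pentraxin, fell from 64.9 and 32.3 FPKM to 9.99, 20.0 and 8.97 at 48 hours and from 60.6, 52.8 and 60.8 to 11.9, 13.1 and 11.5 at 2 weeks. DMSO libraries spread widely at 48 hours, but the highest CSC library stayed below them (-2.06 ± 0.20, adjusted p = 0.0001).

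Other large falls were of INSL4, a placental relaxin-family peptide (-1.53 ± 0.20, adjusted p = 0.00069), TNS1, a focal adhesion protein (-1.50 ± 0.19, adjusted p = 0.000539), and CXCR7 (now ACKR3), a scavenging chemokine receptor (-1.53 ± 0.19, adjusted p = 0.000377). GPR56 (now ADGRG1), an adhesion receptor, had 19.8 and 16.9 FPKM in DMSO and 10.7, 9.27 and 11.4 in CSC at 48 hours, and 58.6, 56.1 and 50.4 against 12.6, 16.1 and 11.3 at 2 weeks (-1.47 ± 0.19, adjusted p = 0.00069). Its CSC level hardly differed between durations while its vehicle level did. DEFB1, an epithelial defensin, had 0.884 and 0.901 FPKM in DMSO and was listed at 0, 0 and 0.792 in CSC at 48 hours, and it had 3.01, 4.02 and 3.52 against 0, 0.153 and 0 at 2 weeks (-2.05 ± 0.34, adjusted p = 0.00334). It was separated narrowly at 48 hours and widely at 2 weeks. ANXA8L1 had the most negative difference of the separated genes (-2.42 ± 0.55, adjusted p = 0.0228, and 0.0655 without DMSO 2 weeks replicate 2). ANXA8L1 and the gene EIF3CL, which rose by 1.75 ± 0.24 (adjusted p = 0.000727), have near-identical copies and are summed over 2 loci each, so their values are uncertain.

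Further rises were of RAP1GAP, which switches off the GTPase RAP1 (1.33 ± 0.18, adjusted p = 0.000788), and PADI2, a protein-citrullinating enzyme (1.20 ± 0.14, adjusted p = 0.000256). RAP1GAP had 3.75 and 7.02 FPKM in DMSO and 11.8, 7.46 and 14.7 in CSC at 48 hours, and 6.60, 7.20 and 5.94 against 21.2, 19.3 and 21.9 at 2 weeks. At 48 hours the lowest CSC library was only just above DMSO. CDR1 was called at 1.12 ± 0.24 (adjusted p = 0.0155, and 0.0550 without CSC 2 weeks replicate 3), at a locus that an antisense RNA covers. The 2 most abundant separated genes in each direction were ALDH1A1, a retinal dehydrogenase (-0.43 ± 0.11, adjusted p = 0.0436, and 0.138 without DMSO 2 weeks replicate 2), and KRT18 among the lower, and HIST4H4 (0.56 ± 0.13, adjusted p = 0.0272) and C17orf76-AS1 (0.42 ± 0.10, adjusted p = 0.0306) among the higher. Without CSC 2 weeks replicate 3 the adjusted p was 0.0883 for HIST4H4, a histone gene, and 0.0919 for C17orf76-AS1, a noncoding RNA.

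**Figure D3:**
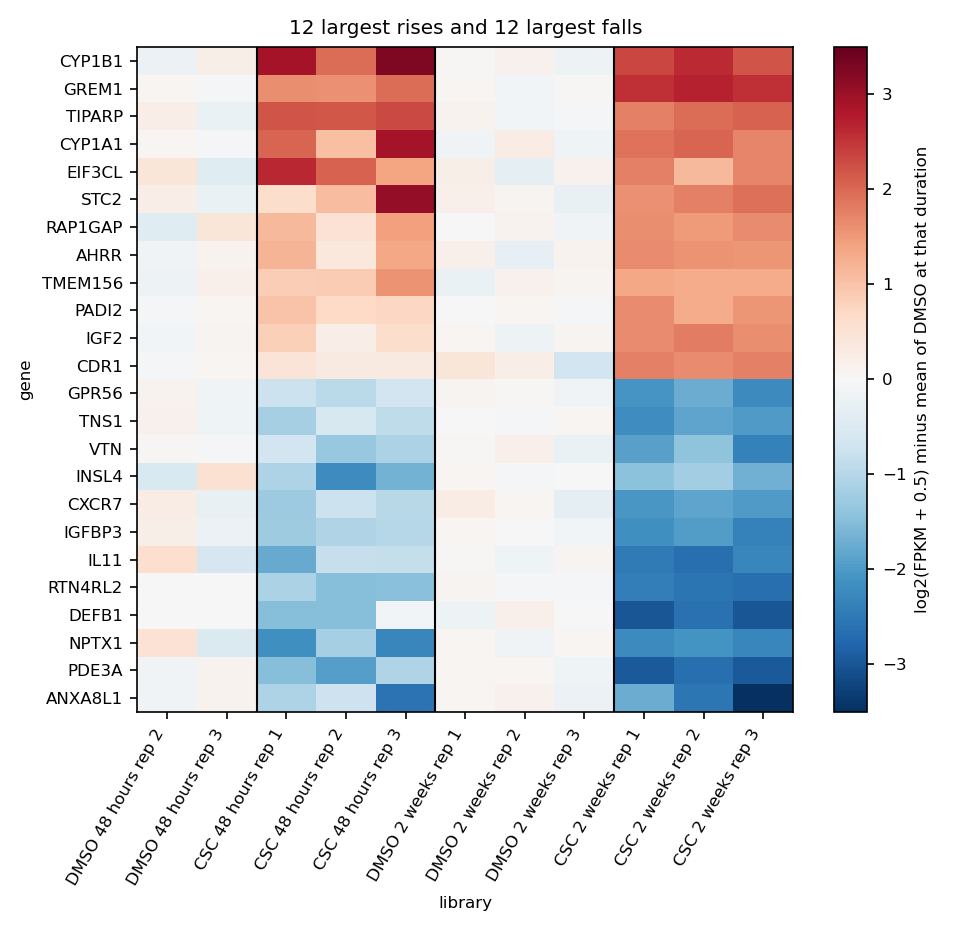
Level in each library on the log2(FPKM + 0.5) scale minus the mean of the DMSO libraries of the same duration (colour), for the 12 largest rises and 12 largest falls among the genes called and separated. CSC 48 hours replicate 3 is the darkest library for STC2 and CYP1B1, and most falls are darker at 2 weeks than at 48 hours.

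Retinoic acid is made from retinal by aldehyde dehydrogenases and acts through nuclear receptors. The 2 forms of the enzyme that were called moved in opposite directions. ALDH1A3 rose from 5.75 and 4.39 FPKM to 11.1, 11.2 and 9.95 at 48 hours and from 5.23, 4.80 and 4.90 to 10.6, 8.41 and 10.03 at 2 weeks (0.95 ± 0.09, adjusted p = 5.98e-05), whereas ALDH1A1 fell. The CSC libraries of ALDH1A3 all stood above 8 FPKM and all DMSO libraries below 6. TGM2, a transglutaminase that retinoids induce, fell from 74.5 and 65.9 FPKM to 34.5, 42.6 and 34.4 at 48 hours and from 146, 136 and 138 to 49.7, 41.0 and 43.7 at 2 weeks. Its CSC libraries lay below every DMSO library (-1.32 ± 0.13, adjusted p = 0.000101). The receptor gene RARB fell by 0.39 ± 0.08 (adjusted p = 0.0112) and RXRA rose by 0.40 ± 0.10 (adjusted p = 0.0348, and 0.102 without DMSO 2 weeks replicate 2). Of 18 genes on this list, 2 were called higher and 3 lower, all separated. The count called higher was 1 without CSC 48 hours replicate 1, DMSO 48 hours replicate 2 or any single 2-week library other than CSC replicate 2.

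Among inflammatory cytokines and chemokines, 1 of 18 was called higher and 3 lower, all separated. IL11, a cytokine of the IL-6 family, had 29.6 and 12.8 FPKM in DMSO and 5.40, 11 and 10.8 in CSC at 48 hours, and 19.4, 17.2 and 20.5 against 3.03, 2.60 and 3.47 at 2 weeks. The groups came close at 48 hours and were far apart at 2 weeks (-1.88 ± 0.27, adjusted p = 0.00132). CXCL5, a neutrophil chemokine, fell by 0.66 ± 0.10 (adjusted p = 0.0017), and BIRC3, an inhibitor of cell death that NF-kappaB induces, rose by 0.74 ± 0.12 (adjusted p = 0.00256). IL18 was the other fall, with an adjusted p of 0.0626 without DMSO 2 weeks replicate 2. The median of the list was 0.39 at 48 hours and -0.20 at 2 weeks.

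Matrix and mesenchymal genes were called mostly lower, but few of them were separated. Of 28 mesenchymal and matrix genes, 7 were called lower and 1 higher, 2 and 1 of them separated, with a median of -0.24. SNAI1, a repressor of epithelial genes, was at -0.70 ± 0.12 (adjusted p = 0.00355), and COL6A1, a collagen chain, rose by 0.43 ± 0.09 (adjusted p = 0.0109). Of 17 basement membrane genes, 5 were called lower, 2 of them separated, with a median of -0.26. COL4A1, a type IV collagen chain, was at -0.83 ± 0.18 (adjusted p = 0.0177, and 0.0619 without CSC 2 weeks replicate 3) and overlapped at 48 hours. Without CSC 2 weeks replicate 3 the counts called lower were 3 of the mesenchymal and 1 of the basement membrane genes. They were 3 and 1 without DMSO 48 hours replicate 2, and 4 and 1 without DMSO 2 weeks replicate 1 or 2. The basement membrane count was 2 without DMSO 2 weeks replicate 3 and 3 without CSC 2 weeks replicate 1. ITGA11, a collagen-binding integrin subunit, had 4.25 and 2.94 FPKM in DMSO and 1.7, 1.41 and 2.57 in CSC at 48 hours, and 6.1, 7.02 and 6.14 against 1.62, 2.24 and 1.55 at 2 weeks (-1.24 ± 0.17, adjusted p = 0.00111), with no overlap at either time. Of 13 integrin subunits tested, 2 were called lower, ITGA11 and ITGA1, and 1 higher, ITGA2, another collagen-binding subunit (0.47 ± 0.13, adjusted p = 0.0491). ITGA2 was separated but lost its call under each of the 3 scalings and without DMSO 48 hours replicate 2, any single DMSO 2 weeks library, or CSC 2 weeks replicate 2 or 3.

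A549 cells make several plasma proteins typical of liver. Of 9 such genes tested, 6 were called, all lower, and VTN and F2 were the separated ones. The list's median was -0.84. F2, prothrombin, was called in 7 of the 11 fits that left out 1 library. VTN, vitronectin, had 2.83 and 2.60 FPKM in DMSO and 1.52, 0.783 and 1.00 in CSC at 48 hours, and 7.75, 8.52 and 6.32 against 1.63, 2.48 and 1.04 at 2 weeks. It was lower in all 6 CSC libraries (-1.51 ± 0.20, adjusted p = 0.000709). FGB, a fibrinogen chain, had 6.01 and 16.5 FPKM in DMSO and 3.66, 1.82 and 6.34 in CSC at 48 hours, where CSC replicate 3 overlapped, and 28.7, 31.5 and 23.6 against 4.12, 5.74 and 3.52 at 2 weeks (-2.02 ± 0.31, adjusted p = 0.00195). The count was 3 without CSC 2 weeks replicate 3.

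KRT8, the simple epithelial keratin, had 951 and 1095 FPKM in DMSO and 756, 573 and 634 in CSC at 48 hours, and 1745, 1669 and 1519 against 1289, 995 and 1036 at 2 weeks. The CSC libraries were lower at each duration (-0.61 ± 0.12, adjusted p = 0.0106). KRT18, its partner, was at -0.55 ± 0.13 (adjusted p = 0.0251, and 0.0847 without CSC 2 weeks replicate 3), and the loci of this pair overlap. These abundant genes carry the lower epithelial marker sum given above, whose part in the other results was not tested. Of 30 epithelial junction and keratin genes, 3 were called, all lower; without CSC 2 weeks replicate 2 the count was 6, and without CSC 48 hours replicate 3 it was 5. Among Wnt receptors and feedback genes 2 of 22 were called, both lower and separated: FZD8, a Wnt receptor (-0.91 ± 0.10, adjusted p = 0.000162), and SFRP4, a secreted antagonist (-0.61 ± 0.12, adjusted p = 0.00793). That count was 4 without CSC 2 weeks replicate 2. Of 24 YAP and TAZ targets, 1 was called higher and 3 lower, and the rise, of NT5E, lost its call under each of the 3 scalings and without any single DMSO 2 weeks library, CSC 2 weeks replicate 3, CSC 48 hours replicate 2 or DMSO 48 hours replicate 3. Of 12 xenobiotic and lipid transporters, 1 was called higher and 1 lower, with a median of -0.01. The rise was of ABCA1, the cholesterol exporter, which was separated (0.86 ± 0.14, adjusted p = 0.00233). The fall was not separated, and the count called lower was 0 without any single DMSO 2 weeks library.

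**Figure D4:**
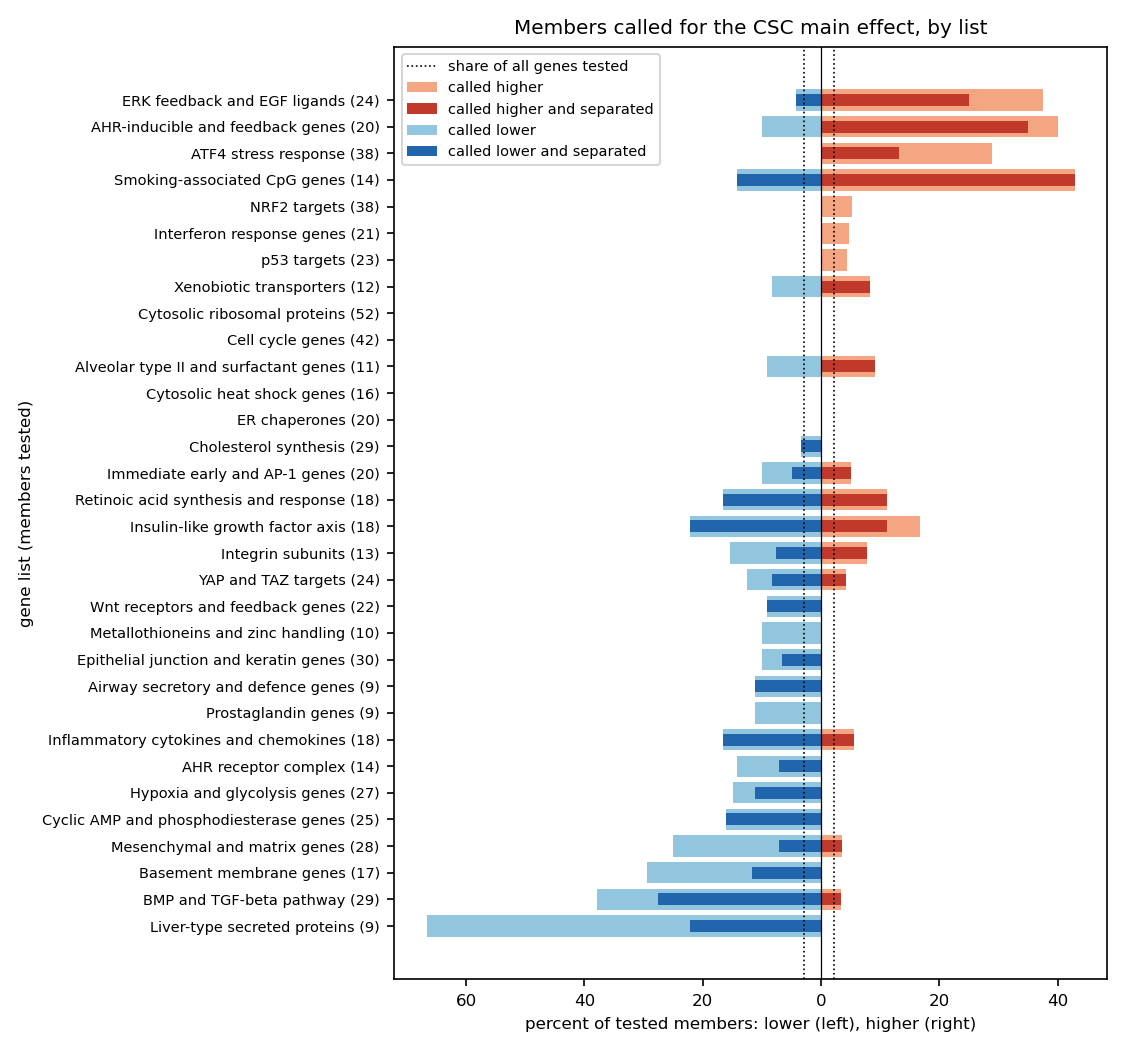
Percent of the tested members of each gene list called lower (left) or higher (right) with CSC, with the darker bars giving those also separated at both durations and the number of tested members in brackets. The dotted lines mark the shares of all 12506 genes, 2.9% lower and 2.24% higher; the lists were chosen with earlier results of these data known.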

How the data were processed

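RNA from 11 libraries of A549 cells was depleted of ribosomal RNA, sequenced and aligned to hg19 with TopHat2 2.0.9, per the labels' protocols; CASAVA 1.7.1a5 is named in the submitters' processing notes. The authors deposited FPKM per gene and library with confidence bounds; quantifier, annotation and strand setting: not given in the sources used here. The members and gene lists were chosen with earlier results of these data known.

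FPKM was summed over loci for 548 of 23609 symbols, and 1 gene with a failed estimate was left out. Genes with at least 1 FPKM in 2 libraries were tested on log2 of the deposited FPKM plus a pseudocount of 0.5, with limma 3.58.1 (trended variance) in R 4.3.3, treatment and duration as terms and 8 residual degrees of freedom. Values after ± are standard errors, and p-values were adjusted over all 12506 genes by the Benjamini-Hochberg method. The procedure was tested on simulated data.

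The genes named were the 12 largest rises and 12 largest falls with a mean of at least 1 FPKM among genes called and separated, up to 4 members of each list by p, the 2 most abundant separated genes per direction, CYP1A1, CYP1B1, AHRR, TIPARP, AHR, ARNT, NQO1 and HMOX1, the 3 called genes whose effect differed most between durations, and the genes nearest the threshold. Further list members were named after their values were seen. Small RNA symbols were left out of this ranking. FPKM keeps no depth in reads, so no counting error is given. No 2 libraries held identical values.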

Additional observations from a re-analysis of the deposited data

Results flagged for a closer look

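For 3 of the genes described, the CSC effect differed between durations by limma's test of the difference itself, adjusted over all genes. For RTN4RL2 the 2-week difference minus the 48-hour difference was -1.18 (adjusted p = 0.0432), and CSC was lower at each duration. For GABRE it was -1.31 (adjusted p = 0.0383): its level was 7.29 and 7.87 FPKM in DMSO and 6.83, 5.88 and 6.47 in CSC at 48 hours, and 11.2, 12 and 14.4 against 3.33, 4.41 and 4.18 at 2 weeks. For CEACAM6, a cell adhesion glycoprotein, it was -2.73 (adjusted p = 0.0288), from 0.55 at 48 hours to -2.18 at 2 weeks. CEACAM6 was not called for the effect common to both durations (-0.97 ± 0.41, adjusted p = 0.172).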

How the results depend on the processing

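None of the 492 genes changed sign in an alternative run that tested it, and 423 were called under each of the 3 scalings. For the fits that left out 1 library, and for other pseudocounts or variance options, the choice of separated genes fixed the sign in advance. Genes called higher and lower numbered 280 and 363, those also separated 220 and 272. The numbers called higher, called lower, and those separated in each direction were 122, 187, 104 and 155 without the duration term, 66, 155, 63 and 141 at an adjusted p under 0.01, and 1018, 847, 863 and 772 with both libraries that stood apart left out. Library weights gave 667 called higher and 764 called lower, and without a filter on low values 150 were called higher and 140 of the higher were separated. Leaving out 1 library gave 108 to 445 called higher and 214 to 503 called lower, and 97 to 359 and 186 to 417 separated; the cause was not tested. The gene ARNT, at 0.04 as deposited, reversed to -0.01049 under median-of-ratios scaling, -0.01258 under a common sum and -0.002362 under quantile normalization.

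The deviations of same-numbered CSC and DMSO libraries from their group means correlated at 0.21 and 0.22 at 48 hours and at 0.22, -0.15 and -0.12 at 2 weeks. With only 2 DMSO libraries at 48 hours, their deviations mirror each other, so these values do not settle whether the numbers pair the samples. With the replicate block 227 genes were called higher and 345 lower, 183 and 255 of them separated; with the block within duration the counts were 381 and 409, and 215 and 265.

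Depth in reads is unknown, so the precision of low levels such as those of CYP1A1, AHRR and DEFB1 cannot be given. The spread rests on 2 or 3 libraries per group, and 2-week libraries weigh on the counts. A gene that misses the threshold is not shown to be without a difference.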

Other observations

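The 36 lists together held 853 genes, beside 12506 genes tested. Of the 492 genes, 72 were on at least 1 list and 420 on none. The genes in this paragraph were picked after their values were seen. The chromatin proteins HMGA2 and HMGA1 both rose: HMGA2 by 1.11 ± 0.19 (adjusted p = 0.00359), with 6.75 and 7.39 FPKM in DMSO and 10.6, 14.5 and 7.61 in CSC at 48 hours, and 4.76, 5.35 and 4.86 against 15.6, 14.2 and 17.6 at 2 weeks, and HMGA1 by 0.85 ± 0.13 (adjusted p = 0.00168). The kinase gene HIPK2 had 11 to 12.3 FPKM in the 5 DMSO libraries and 18.4 to 26.8 in the 6 CSC libraries (0.93 ± 0.09, adjusted p = 5.98e-05). PLIN2, a lipid droplet coat protein, rose by 0.72 ± 0.09 (adjusted p = 0.000392), and SOCS3, a brake on cytokine signalling, by 0.89 ± 0.16 (adjusted p = 0.00487). The transcription factor SOX9 had 5.67 to 7.79 FPKM in DMSO and 2.01 to 4.63 in CSC (-1.21 ± 0.14, adjusted p = 0.000311). SGK1, a kinase that glucocorticoids induce, fell by 1.37 ± 0.16 (adjusted p = 0.000359), and NTRK3, a neurotrophin receptor, by 1.10 ± 0.17 (adjusted p = 0.00207). HNF4A, a nuclear receptor of liver and gut epithelium, had 8.55 and 12.6 FPKM in DMSO and 6.5, 5.92 and 6.54 in CSC at 48 hours, and 20.2, 17.4 and 18.6 against 12.8, 11 and 11.6 at 2 weeks (-0.66 ± 0.10, adjusted p = 0.0013). CPS1, a mitochondrial enzyme of the urea cycle, fell by 1.36 ± 0.23 (adjusted p = 0.00371).

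The share of tested genes that were higher ran from 0.647% on chromosome 22 to 2.73% on chromosome 21, beside 1.76% over all genes and leaving out chromosome Y with 12 tested genes. The share that were lower ran from 0 of 199 genes on chromosome 13 and 0.577% on chromosome 19 to 5.29% on chromosome 18 and 5.45% on chromosome 21 (6 of 110 genes), beside 2.17% over all genes. Of the genes with a known type, 204 of 211 higher and 267 of 271 lower ones were protein coding, against 11600 of 12206 tested.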
